A study of Mus musculus with 4 samples.

Results

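The genes described here belong to the T-bet program of innate lymphocytes: Tbx21, which encodes the transcription factor T-bet, the receptor genes Ncr1 and Cxcr3, the cytokine gene Ifng and the chemokine genes Xcl1, Ccl3, Ccl4 and Ccl5. They were taken by symbol from both joint expression tables, which held all 8 of them among 15242 and 12546 tabulated names. The cells were group 3 innate lymphoid cells, or ILC3s, isolated from the small intestine of mice and sorted as live cells with low CD45, high CD90.2 and no CD3. There was 1 library in each of 4 groups: ILC3s of IL-17D-deficient mice (Il17d-KO, written KO here), ILC3s of wild-type (WT) mice, and CD93-positive and CD93-negative ILC3s, both from WT mice. Mice were at steady state. Before the sort for CD93, suspended cells spent 12 h in unstimulated culture; the labels repeat this protocol text for all 4 libraries, and whether the KO and WT cells were cultured too is unknown. The kind of Il17d allele, the age, sex and strain of the mice, and how many were pooled for a library are missing from the sources used here. KO was set against WT, and CD93-positive against CD93-negative, each within its own table, because the tables were processed separately.

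T-bet is a T-box transcription factor that drives the type 1 program of lymphocytes, in which cells make interferon gamma and chemokines that call in other leukocytes. In the gut it is known as the factor that lets a subset of ILC3s acquire NKp46, the receptor encoded by Ncr1. NK cells, ILC1s and activated T cells also use this program, so the same transcripts can come from more than one kind of cell.

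Values are FPKM (fragments per kilobase of gene, scaled to library size), so levels of different genes can be compared within a library. Read numbers were recovered from them. Folds are FPKM ratios with a 95% exact interval from the reads, which covers counting error only. A gene was counted as different at a log2 difference of FPKM + 1 of at least 1, that is 2-fold, among genes that reached an FPKM of 1 in either library of the pair, called measured here. Because each group is 1 library, replicate error is unknown, p-values are not given, and every difference below is between libraries. Scaling totals recovered from the values were 27002582 and 26087274 reads for KO and WT, and 11712846 and 11790580 for the CD93-positive and CD93-negative libraries. Cd93 itself was at 155.0 in the CD93-positive and at 79.9 in the CD93-negative library. This ratio of 1.94 (1.88 to 2.00), a log2 difference of 0.95, is under the 2-fold limit, so the CD93-negative library was not free of Cd93 transcript. Il17d, the deleted gene, was not analysed here, which leaves the KO label without a check. Il22 and Il7r, which ILC3s express, were present in all 4 libraries.

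The stretches of DNA just before the transcription start are shown for members lower in the CD93-positive library whose promoter holds a T-box core. Ifng stands beside them as a member without one. RefSeq promoters (build GRCm38.p6) matched 6 of the 8 members, without Ccl4 and Ccl5. The 250 bases before the start were searched on both strands for the T-box core GTGTGA, which reads TCACAC on the other strand, and for the RUNX core TGTGGT, which reads ACCACA there. No matches of the cores overlapped. The T-box core was in 3 of 6 members (Ncr1, Cxcr3 and Xcl1) and in 12.2% of 27025 promoters of this length. The RUNX core was in 4 of 6 (those 3 and Ccl3) and in 14.2% of all promoters. Tbx21, the member with the largest difference in the CD93 pair, held neither core and is not printed. Whether the cores go with lower levels was not tested. A match describes letters in the window and does not show binding. Capitals mark the matches, and sequences run 5′ to 3′ on the gene's strand. They end at the RefSeq start, or before the first annotated exonic base of any gene where that comes earlier. In Cxcr3 that base is in its own exon. In Xcl1 it is in an exon of the antisense gene Gm20743, so the printed end is not the annotated start of Xcl1.
Ncr1 (chr7:4337465-4337714, plus strand): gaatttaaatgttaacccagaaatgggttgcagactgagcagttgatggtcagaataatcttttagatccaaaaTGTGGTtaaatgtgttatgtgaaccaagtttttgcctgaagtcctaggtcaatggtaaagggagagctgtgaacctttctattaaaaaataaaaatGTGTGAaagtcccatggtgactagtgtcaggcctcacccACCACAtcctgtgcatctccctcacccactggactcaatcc
Xcl1 (chr1:164935566-164935772, minus strand): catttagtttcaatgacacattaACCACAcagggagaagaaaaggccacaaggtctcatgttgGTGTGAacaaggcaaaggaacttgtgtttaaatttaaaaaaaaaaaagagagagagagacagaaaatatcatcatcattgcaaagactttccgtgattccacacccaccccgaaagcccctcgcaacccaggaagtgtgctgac
Cxcr3 (chrX:101734270-101734397, minus strand): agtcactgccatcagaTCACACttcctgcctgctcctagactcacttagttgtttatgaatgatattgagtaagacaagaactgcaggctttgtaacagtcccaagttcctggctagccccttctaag
Ifng (chr10:118440796-118441045, plus strand): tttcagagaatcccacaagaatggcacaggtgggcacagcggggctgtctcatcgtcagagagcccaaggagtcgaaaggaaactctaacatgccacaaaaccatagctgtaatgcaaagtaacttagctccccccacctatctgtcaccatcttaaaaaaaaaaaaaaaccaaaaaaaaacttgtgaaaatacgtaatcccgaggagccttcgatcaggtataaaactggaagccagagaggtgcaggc
In Ncr1 the T-box core began 80 bases before the start and the RUNX cores 176 and 41 bases before it. In Xcl1 the T-box core began 187 bases and in Cxcr3 234 bases before the start. The RUNX core of Cxcr3, 110 bases before the start, lies in annotated exon sequence and is not printed. All these distances run to the RefSeq start, which in Xcl1 and Cxcr3 lies past the printed end. Of the 250 bases of Cxcr3, 122 are annotated exon.

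The CD93 sort set ILC3s sorted as carrying this surface glycoprotein against those sorted as lacking it, and here the T-bet genes were lower in the CD93-positive library. Tbx21 and Cxcr3 passed the 2-fold limit downward. Ncr1, Xcl1 and Ccl5 were lower with intervals below a ratio of 1, and the intervals of Ifng, Ccl3 and Ccl4 held 1. The FPKM of Xcl1 was 2.16-fold lower, but its difference of FPKM + 1 fell just short of the limit. Of the 8 members, 2 were at least 2-fold lower, against 1.94% of 10117 measured genes, and 0 were at least 2-fold higher, against 2.49%. The median log2 difference of the members was -0.69 and that of all measured genes 0.04. Intervals lay off 1 for 5 members, against 60.0% of 9842 genes with recovered reads; all 5 lay below 1, against 25.8%, and 0 above, against 34.2%. Scaled to a common sum as in TPM, the median of all genes was -0.15 and that of the members -0.88. With that scaling 290 genes passed the limit upward and 732 downward, while with the deposited values 252 did so upward and 196 downward. The common sum raised all values but left the pseudocount and the minimum at 1, so 11831 genes were counted. Scaled to the mean of the 2 FPKM sums, 173 of 10138 genes passed upward and 296 downward.

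Tbx21 (ENSMUSG00000001444.2; mm10 chromosome 11, 97098071 to 97115331, minus strand) stood at 7.96 FPKM (232 reads) in CD93-positive ILC3s and 25.4 (746 reads) in CD93-negative cells. This is 3.19-fold lower (2.75 to 3.72), a log2 difference of -1.56. Among all measured genes, 0.376% had a more negative difference.

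Ncr1 (ENSMUSG00000062524.4; chromosome 7, 4337724 to 4345164, plus strand), which encodes the activating receptor NKp46, had 14.8 (267 reads) in CD93-positive ILC3s and 25.7 (467 reads) in CD93-negative cells. It was 1.74-fold lower (1.49 to 2.03), which is under the 2-fold limit. Cxcr3 (ENSMUSG00000050232.6; chromosome X, 101731535 to 101734269, minus strand), which encodes the receptor of the interferon-induced chemokines CXCL9, CXCL10 and CXCL11, had 21.8 (441 reads) and 60.9 (1243 reads) in the same libraries. It was 2.80-fold lower (2.51 to 3.13) and was the highest of the 8 members in both. In bulk libraries, fewer cells that carry a transcript and less of it per cell cannot be told apart.

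Ifng (ENSMUSG00000055170.4; chromosome 10, 118441046 to 118445892, plus strand), which encodes interferon gamma, had 5.54 (84 reads) in CD93-positive ILC3s and 5.83 (89 reads) in CD93-negative cells. The ratio was 0.95, and its interval of 0.697 to 1.29 holds no 2-fold difference in either direction. Its neighbour on chromosome 10, Il22, the main cytokine gene of ILC3s, was 4.79-fold higher in CD93-positive ILC3s, and the FPKM of Il22 over that of Ifng was 1433 in CD93-positive ILC3s and 284 in CD93-negative cells. This within-library ratio does not depend on the scaling of the libraries, and it differed 5.04-fold (3.74 to 6.80).

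Of the chemokines, Xcl1 (ENSMUSG00000026573.7; chromosome 1, 164931644 to 164935527, minus strand), whose product attracts dendritic cells that carry XCR1, had 5.55 (34 reads) in CD93-positive ILC3s and 12.0 (74 reads) in CD93-negative cells. It was 2.16-fold lower (1.42 to 3.35). Its log2 difference with the pseudocount was -0.99, just short of the limit; it passed with a pseudocount of 0.1 (-1.10), with both scaled to the mean of the 2 FPKM sums (-1.14) and with a common sum (-1.25). Ccl5 (ENSMUSG00000035042.2; chromosome 11, 83525778 to 83530518, minus strand), which encodes RANTES, had 20.5 (230 reads) and 31.8 (360 reads) in the same libraries. It was 1.55-fold lower (1.31 to 1.84). In the annotation an antisense gene, Gm20743, overlaps Xcl1, and Gm49751 overlaps Ifng on its own strand; neither is tabulated, and the sources used here do not say whether reads were counted by strand.

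Ccl3 (ENSMUSG00000000982.5; chromosome 11, 83647844 to 83649355, minus strand), which encodes MIP-1 alpha, had 2.90 (26 reads) in CD93-positive ILC3s and 2.77 (25 reads) in CD93-negative cells. Its neighbour Ccl4 (ENSMUSG00000018930.3; chromosome 11, 83662584 to 83664683, plus strand), which encodes MIP-1 beta, had 2.85 (22 reads) and 3.47 (27 reads). With so few reads their ratios of 1.05 (0.581 to 1.89) and 0.820 (0.445 to 1.5) leave moderate differences in either direction undetectable. The sign of Ccl3 turned to negative when both were scaled to the mean of the 2 FPKM sums and with a common sum (lowest value -0.10).

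**Figure D1:**
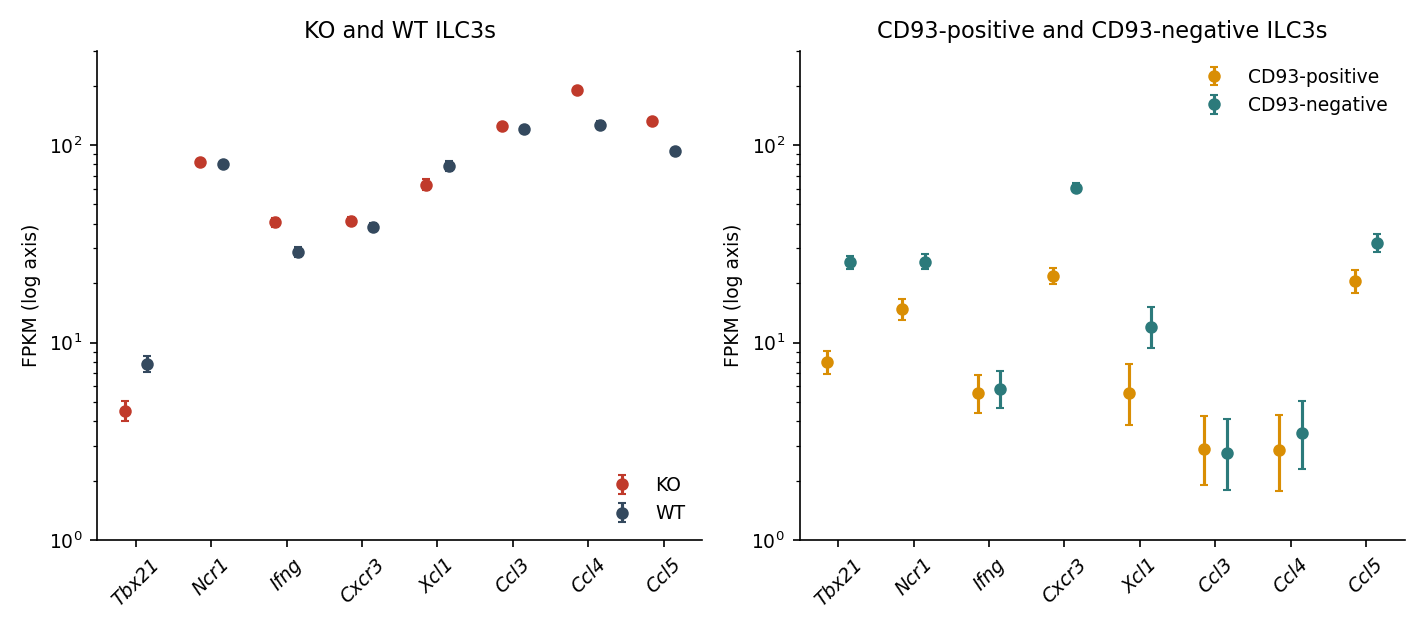
FPKM of the 8 genes on a log axis in KO and WT ILC3s (left) and in CD93-positive ILC3s and CD93-negative ILC3s (right), 1 library per point, with 95% counting intervals of the level as bars. The points of Tbx21 and Cxcr3 stand apart in the right panel (7.96 and 25.4; 21.8 and 60.9), while those of Ifng lie together (5.54 and 5.83). Levels should be read within a panel.

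The order of the 8 levels was nearly the same in both libraries of the CD93 pair. In CD93-positive ILC3s it ran from Cxcr3 (21.8) over Ccl5, Ncr1, Tbx21, Xcl1 and Ifng to Ccl3 and Ccl4 (2.85), with overlapping counting intervals between Cxcr3 and Ccl5, between Tbx21 and Xcl1, between Xcl1 and Ifng, and between Ccl3 and Ccl4; those of Tbx21 and Ifng did not overlap. In CD93-negative ILC3s it ran from Cxcr3 (60.9) over Ccl5, Ncr1, Tbx21, Xcl1 and Ifng to Ccl4 and Ccl3 (2.77), with overlap between Ncr1 and Tbx21 and among Ifng, Ccl4 and Ccl3 as neighbours. Ratios of members to Tbx21 show how unequally they differed. Tbx21 had the lowest ratio of CD93-positive over CD93-negative, so every other member was necessarily higher relative to it in CD93-positive ILC3s. The FPKM of Cxcr3 over that of Tbx21 was 2.73 in CD93-positive ILC3s and 2.39 in CD93-negative cells, a fold of 1.14 (0.95 to 1.37), and that of Xcl1 over Tbx21 differed 1.48-fold (0.959 to 2.28). Both intervals hold 1. Ifng over Tbx21 was 0.696 and 0.229, 3.03-fold higher in CD93-positive ILC3s (2.18 to 4.23). Ncr1 over Tbx21 was 1.86 and 1.01, 1.84-fold higher (1.49 to 2.27).

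**Figure D2:**
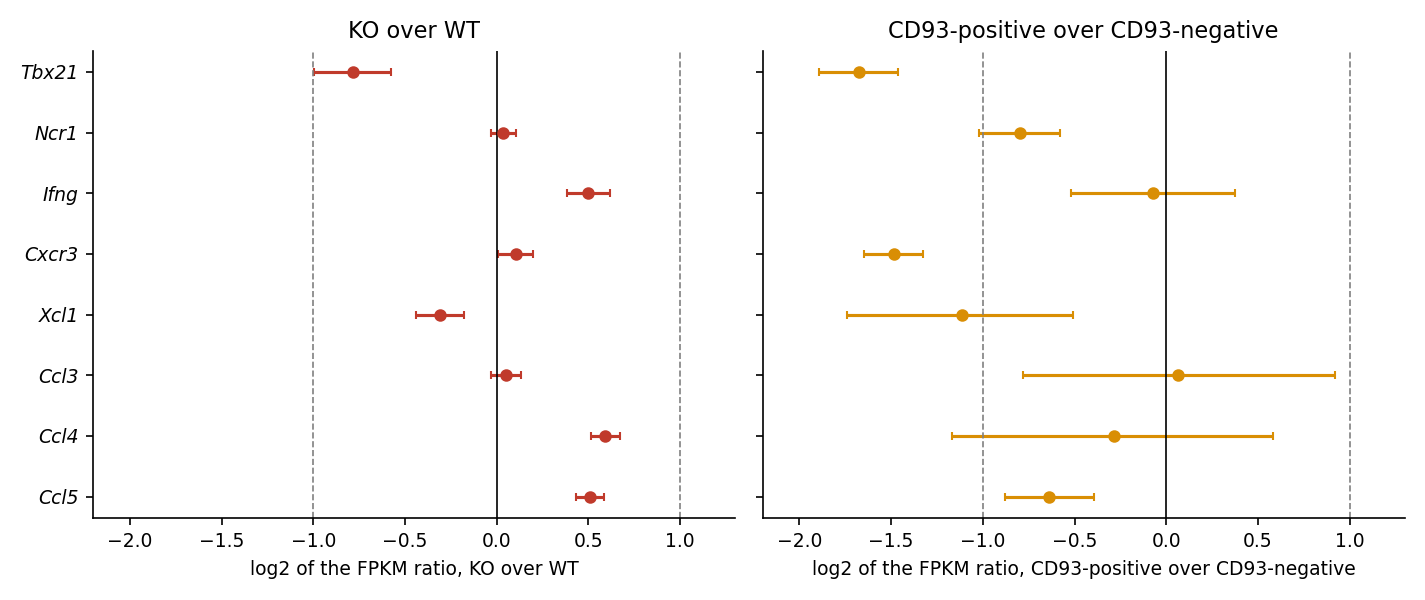
Log2 of the FPKM ratio of each of the 8 genes, KO over WT (left) and CD93-positive over CD93-negative (right), with 95% counting intervals as bars; dashed lines mark 2-fold. Tbx21 (ratio 0.313), Cxcr3 (0.357) and Xcl1 (0.463), the last with an interval across the line, lie left of the 2-fold line in the right panel, and in the left panel Ccl4 (1.51), Ccl5 (1.42) and Ifng (1.41) lie right of 0 and Tbx21 (0.580) left of it.

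Other genes of NCR-positive ILC3s, ILC1s and NK cells were also lower in CD93-positive ILC3s. Without the members, 30 of that list were measured, of which 10 were at least 2-fold lower, against 1.94% of all measured genes, and 1 was higher, against 2.49%, with a median of -0.70. Klrb1c, which encodes NK1.1, was at 0.721 FPKM in CD93-positive ILC3s and 15.3 in CD93-negative cells. The receptor gene Klrd1 had 1.40 and 11.6, the granule genes Nkg7 2.62 and 16 and Gzma 27 and 82.2, and Fasl, which encodes a death ligand, 3.26 and 15.7. Ctsw, a protease gene of cytotoxic lymphocytes, had 18.7 and 55.4. The higher gene was Crtam, with 2.33 and 0.347; it was named after its values were seen. Of 10 NK cell and ILC1 markers 5 were tabulated, with a summed FPKM of 10.9 in CD93-positive ILC3s and 42.4 in CD93-negative cells. Of these 5, 2 were at least 2-fold lower and none was at 0. All 5, with the lower Klrb1c and Klrd1 among them, are also in the list above, so they add no separate genes. Of the 10 T cell markers 4 were tabulated, with a sum of 2.70 and 9.73; of the 3 measured, Cd3d (0.141 and 1.87) and Cd3g (1.12 and 4.67) were at least 2-fold lower, and none was at 0. Of the other marker lists, 2 of 8 ILC3 markers, among them Il22, were at least 2-fold higher (summed FPKM 8787 and 2243, of which Il22 alone made up 7934 and 1655), while Ahr, Kit and Il7r were not at least 2-fold apart. Of 4 measured macrophage and dendritic cell markers 0 were 2-fold apart (117 and 105). The summed FPKM was 20.5 and 36.2 for epithelial markers, 8.32 and 16.4 for mast cell and ILC2 markers, with Mcpt1 at 0 in CD93-positive cells, and 2.27 and 4.98 for the 1 B cell marker tabulated. The part of these cell types in the lower members was not tested.

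Cytokine receptor and signalling genes that feed the program did not share a direction. Among 26 such genes, 2 passed the 2-fold limit upward and 2 downward, with a median of -0.04. Over all measured genes 2.49% passed upward and 1.94% downward, which is also the background of the counts below. The IL-12 and IL-18 receptor chains Il12rb2 (FPKM 0.720 in CD93-positive ILC3s and 8.58 in CD93-negative cells) and Il18r1 (66.5 and 179) were lower. Both were also counted among the lower genes of NCR-positive ILC3s, ILC1s and NK cells. Il18rap was lower by less than 2-fold (40.8 and 56.3). Il12rb1, the chain shared with the IL-23 receptor, was higher (82.0 and 39.6), as was Ifngr2, a chain of the interferon gamma receptor (15 and 4.46), while Ifngr1 had 528 and 651. Of 24 measured transcription factors that act with or against T-bet, 3 were higher, among them Tox2 (26.7 and 5.99) and Zeb2 (8.38 and 2.99), and 1 was lower, with a median of -0.04. Among 22 measured interferon gamma response genes, 0 were at least 2-fold apart, with a median of -0.26; the largest differences were those of Iigp1 (13.1 and 26.4), an interferon-induced GTPase gene, and Gbp3.

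Receptors of the member chemokines did not share a direction in the CD93 pair. Ccr1, a receptor for the products of Ccl3 and Ccl5, was 2.71-fold higher in CD93-positive ILC3s (2.41 to 3.06; FPKM 30.8 and 11.4). Xcr1, the receptor of XCL1, had 10.3 and 14.9. The CXCR3 ligand gene Cxcl10 had 76.8 and 71.9, and Cxcl9 had 0.708 and 0.787, under the measured level. Of 12 measured chemokine receptor genes, 4 were at least 2-fold higher, Ccr6, Cxcr5, Ccr1 and Ackr3, and 1 was lower, Ccr9 (3.64 and 13.5). The shares over all measured genes were 2.49% higher and 1.94% lower. Of 16 other measured chemokine genes, 3 were higher, among them Cx3cl1, which encodes fractalkine (392.1 and 76.4), and 3 were lower, among them Ccl22 (7.16 and 19.6) and Ccl2 (4.28 and 12.1).

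**Figure D3:**
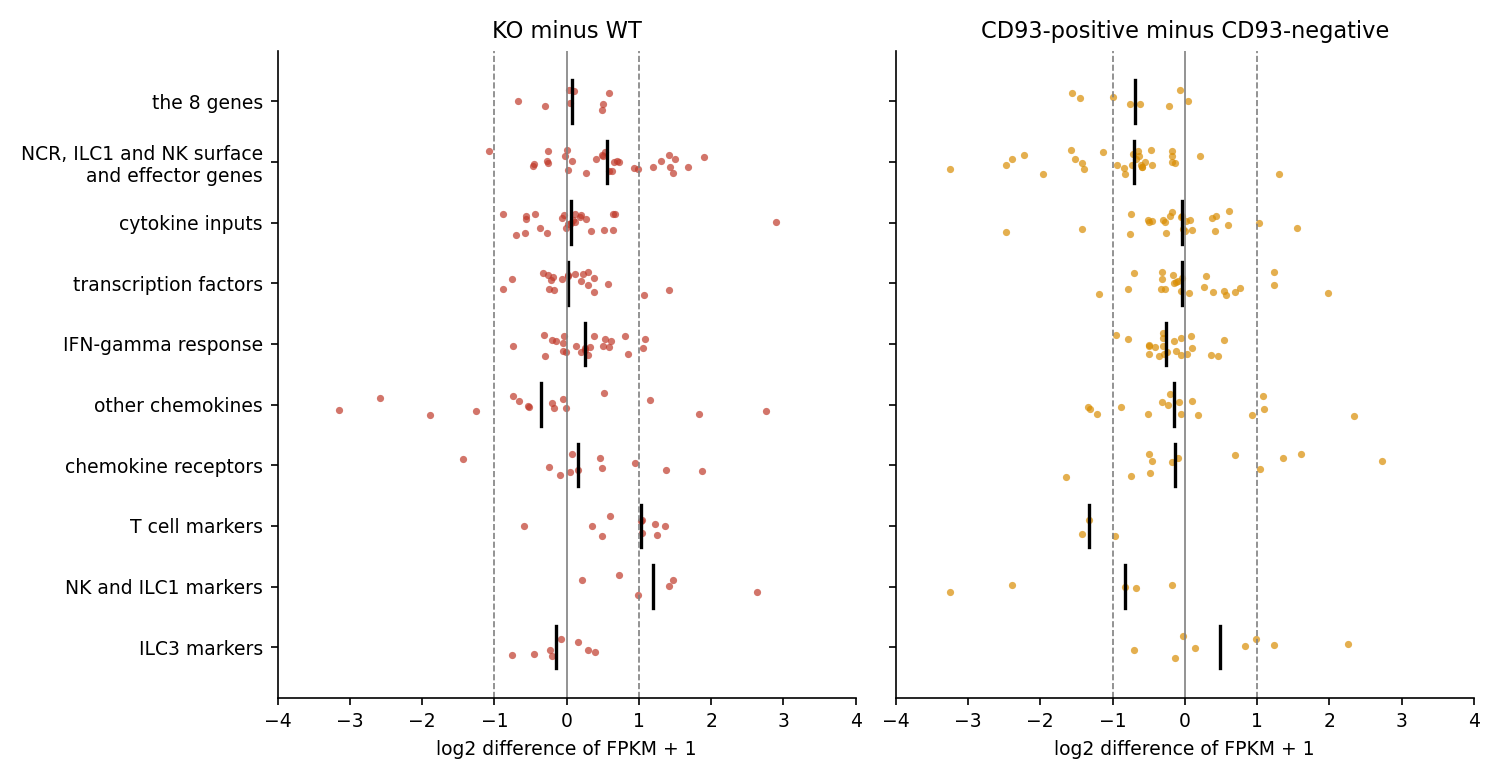
Log2 difference of FPKM + 1 of each measured gene of the lists, KO minus WT (left) and CD93-positive minus CD93-negative (right), with the members drawn in the top row and left out of the rows below; black ticks are medians and dashed lines mark 2-fold. In the right panel the members (median -0.69) and the genes of NCR-positive ILC3s, ILC1s and NK cells (-0.70) lie to the left, and in the left panel that list lies to the right (0.56) and the members near 0 (0.08).

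The loss of IL-17D was the question of the other pair, where differences of the members were small and went both ways. With the deposited values, Ifng, Ccl4 and Ccl5 were 1.41- to 1.51-fold higher in the KO library. Tbx21 and Xcl1 were lower on these values, and Ncr1, Cxcr3 and Ccl3 were close to the WT value. Of the 8 members 0 were at least 2-fold apart, against 29.3% of 12376 measured genes. The median log2 difference of the members was 0.08 and that of all measured genes 0.01; with a common sum these were 0.25 and 0.17. Intervals lay off 1 for 6 members, against 87.3% of 8320 genes with recovered reads; 4 lay above 1, against 46.0%, and 2 below, against 41.3%. An interval off 1 was common in this pair. The share of genes at least 2-fold apart was 40.8% among genes with 100 to 1000 reads over the pair, where Tbx21 lies, and 13.5% among those with 1000 to 10000 reads, where the other 7 members lie.

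Tbx21 stood at 4.52 FPKM (304 reads) in KO and 7.80 (506 reads) in WT ILC3s. It was 1.72-fold lower in the KO library (1.49 to 1.99), and 19.9% of measured genes had a more negative difference. It was the lowest of the 8 members in both libraries.

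Ncr1 had 82.1 (3413 reads) in KO and 80.0 (3215 reads) in WT ILC3s, a ratio of 1.03 (0.977 to 1.08). Cxcr3 had 41.2 (1926 reads) and 38.4 (1733 reads), a ratio of 1.07 (1.01 to 1.15). With the deposited values both receptor genes thus stood at nearly equal levels in these libraries. Scaled to the mean of the 2 FPKM sums, their log2 differences were 0.21 (Ncr1) and 0.27 (Cxcr3), against 0.04 and 0.10 as deposited. Ifng had 40.7 (1423 reads) in KO and 28.8 (972 reads) in WT ILC3s and was 1.41-fold higher (1.3 to 1.54).

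Among the chemokines, Ccl4 had 190.5 (3395 reads) in KO and 126 (2177 reads) in WT ILC3s, 1.51-fold higher (1.43 to 1.59). Ccl5 had 132 (3425 reads) and 93 (2329 reads), 1.42-fold higher (1.35 to 1.5). Ccl3 had 125 (2579 reads) and 120.4 (2405 reads), a ratio of 1.04 (0.980 to 1.10). Its FPKM thus differed less than that of its neighbour: Ccl4 over Ccl3 was 1.53 in KO and 1.05 in WT ILC3s, 1.45-fold apart (1.35 to 1.57). Xcl1 had 63.1 (891 reads) in KO and 78.2 (1067 reads) in WT ILC3s and was 1.24-fold lower (1.13 to 1.36).

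The order of levels in the KO library was Ccl4 (190.5), Ccl5, Ccl3, Ncr1, Xcl1, Cxcr3, Ifng and Tbx21 (4.52), with overlapping intervals of Ccl5 and Ccl3 and of Cxcr3 and Ifng. In the WT library it was Ccl4 (126), Ccl3, Ccl5, Ncr1, Xcl1, Cxcr3, Ifng and Tbx21 (7.80), with overlap of Ccl4 and Ccl3 and of Ncr1 and Xcl1. Tbx21 had the lowest ratio of KO over WT of the 8 members, so relative to it every other member was necessarily higher in the KO library. The fold of the ratio to Tbx21 ran from 1.39 for Xcl1 (1.18 to 1.64) to 2.60 for Ccl4 (2.23 to 3.02). Il22 over Ifng was 289 in KO and 560 in WT ILC3s, 1.93-fold lower in the KO library (1.78 to 2.10).

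**Figure D4:**
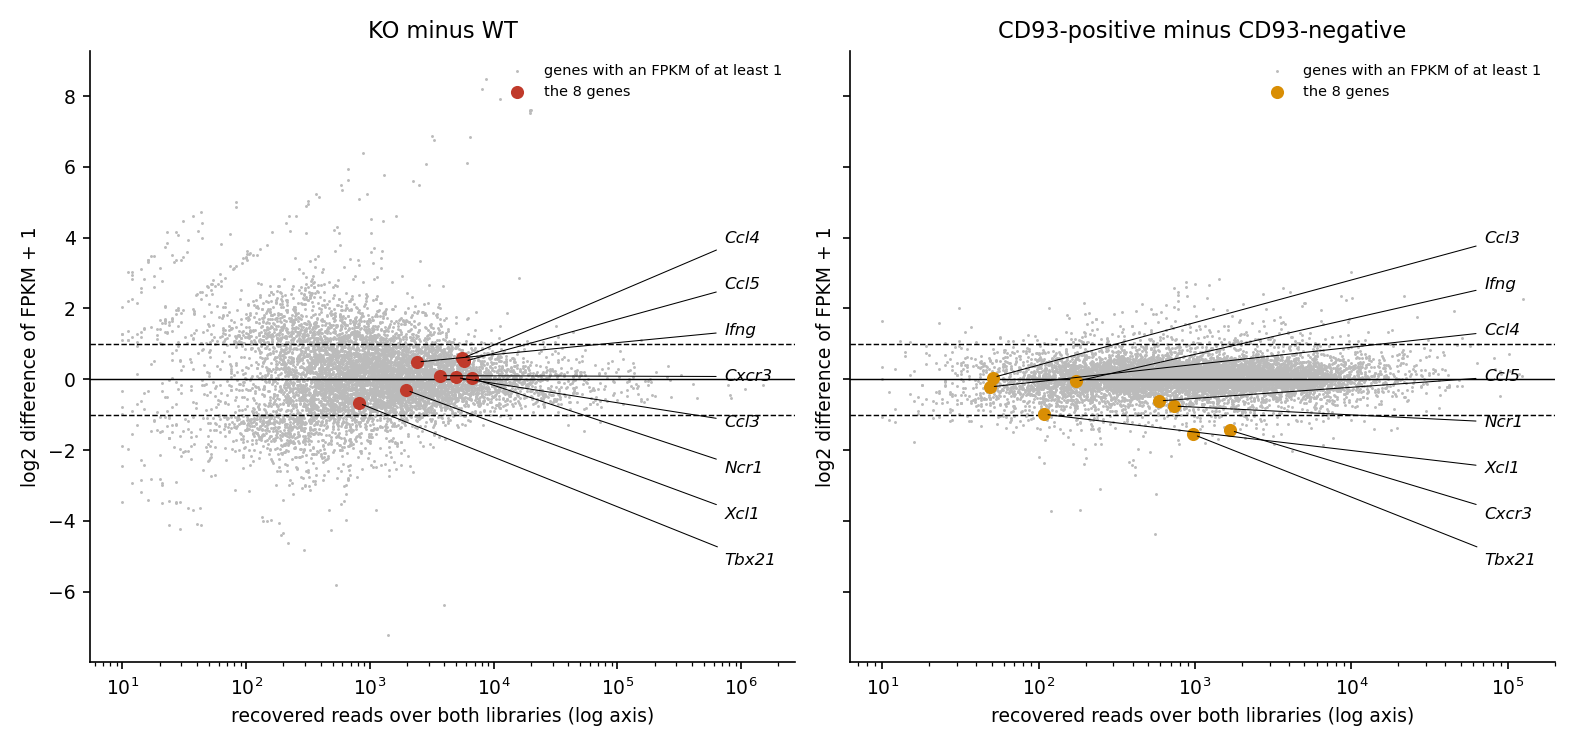
Log2 difference of FPKM + 1 against the recovered reads of both libraries (log axis), KO minus WT (left) and CD93-positive minus CD93-negative (right); grey points are measured genes with recovered reads, coloured points the 8 genes and dashed lines 2-fold. The grey cloud is far wider in the left panel, where 29.3% of measured genes were at least 2-fold apart against 4.43% in the right panel, and Tbx21 and Cxcr3 lie below the cloud's main body in the right panel.

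The wider list of genes of NCR-positive ILC3s, ILC1s and NK cells was higher in the KO library more often than lower. Without the members, 8 of 30 measured genes were at least 2-fold higher, against 16.6% of all measured genes, and 1 was lower, against 12.7%, with a median of 0.56. Fasl was at 110.8 FPKM in KO and 28.9 in WT ILC3s, Tigit, an inhibitory receptor gene, 65.7 and 22.5, Klrb1c 29.5 and 10.03, and Cd160, a receptor gene of NK cells and ILC1s, 29.9 and 10.4. Gzmc, a granzyme gene, was the lower one (50.4 and 107). Of the NK cell and ILC1 markers 7 of 10 were tabulated, with a summed FPKM of 47.2 in KO and 15.1 in WT ILC3s. Of the 6 measured, 3 were at least 2-fold higher, and Klra4 and Klra9 were listed at 0 in WT. Of these higher markers, Klrb1c and Klrd1 are also in the wider list and Klra9 is not. All 10 T cell markers were tabulated, with a sum of 1269 in KO and 886 in WT ILC3s; 6 were at least 2-fold higher, none was at 0, and Trac, the T cell receptor alpha constant gene, had 177 and 86.7 although cells with CD3 had been left out of the sort. Of the macrophage and dendritic cell markers 4 of 7 were tabulated, with sums of 271 and 232, of which Lyz2 (46.4 and 10.9), Cd68 (9.10 and 0.884) and Cd14 (3.63 and 0.0732) were at least 2-fold higher and none was at 0. The fourth, Cst3, made up most of both sums (211.9 and 220.0) and had a ratio of 0.963. Sums were 92.7 and 44.3 for B cell markers, 20.2 and 4.17 for epithelial markers, 19.0 and 30.3 for mast cell and ILC2 markers (Cpa3 at 0 in KO), and 12467 and 16738 for the 8 ILC3 markers, of which 0 were 2-fold apart and Il22 made up 11771 and 16102. The part of these cell types in the higher Ifng, Ccl4 and Ccl5 was not tested.

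Over all measured genes of this pair, 16.6% were at least 2-fold higher and 12.7% lower, which is the background of the counts that follow. Of 25 measured cytokine receptor and signalling genes, 1 was at least 2-fold higher in the KO library, the IL-21 receptor gene Il21r (FPKM 12.0 and 0.738), and 0 were lower, with a median of 0.06. Stat4, which carries the IL-12 signal, had 17 and 25.8. Of 21 measured transcription factor genes, 2 were higher, among them Gata3 (118 and 55.6); Bhlhe40, which supports Ifng expression, had 532 and 356. Of 24 interferon gamma response genes, 2 were higher, among them the GTPase gene Gbp2 (61.2 and 28.3), and 0 were lower, with a median of 0.25. The share of higher genes in this list was below that over all measured genes. Igtp had 137.7 and 76.2. Xcr1, the receptor of XCL1, was low, at 0.00832 (1 read) in KO and 1.72 (200 reads) in WT ILC3s. Cxcl10 had 47.1 in KO and 79.7 in WT ILC3s, a ratio of 0.591 (0.564 to 0.619), and Cxcl9 had 3.55 and 4.23. Of 16 other measured chemokine genes 3 were higher and 4 lower, among these Ccl17 and Ccl20, listed at 0 in KO with 7.91 and 5.02 in WT. Of 11 chemokine receptor genes 2 were higher, Ccr8 (32.5 and 8.16) and Ccr9 (11.6 and 3.87), and 1 was lower, Xcr1.

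Both pairs can be set side by side for each member, since they share no library. Cd93, the gene of the sort, was itself lower in the KO library, at 20.5 FPKM against 43.5 in WT (ratio 0.472, 0.454 to 0.491). Whether the 2 sets of differences are linked through Cd93 was not tested. Tbx21 and Xcl1 were lower in KO and in CD93-positive ILC3s. Ccl5 was higher in KO and lower in CD93-positive ILC3s. With the deposited values, Ncr1 and Cxcr3 lay close to equal in the KO and WT libraries, and they were lower in CD93-positive ILC3s. Among 3949 genes reaching an FPKM of 5 in some library of each pair, those nearest to Tbx21 by the distance of these 2 log2 differences were Nr4a3, an orphan nuclear receptor gene (distance 0.15), Smpdl3a (0.26), the carbonic anhydrase gene Car2 (0.26), Klra5, a gene of the Ly49 receptor family (0.29), and Sntb1 (0.29). The FPKM of Nr4a3 was 55.4 in KO against 85.1 in WT, and 10.1 in CD93-positive ILC3s and 28.7 in CD93-negative cells. Nearest to Ifng were Dazap2, Irf3, Polr2m, Ankrd44 and Mfap3, at distances of 0.02 to 0.03, in the dense part of the plane. Likeness over 2 differences from 4 libraries is a description of these libraries.

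**Figure D5:**
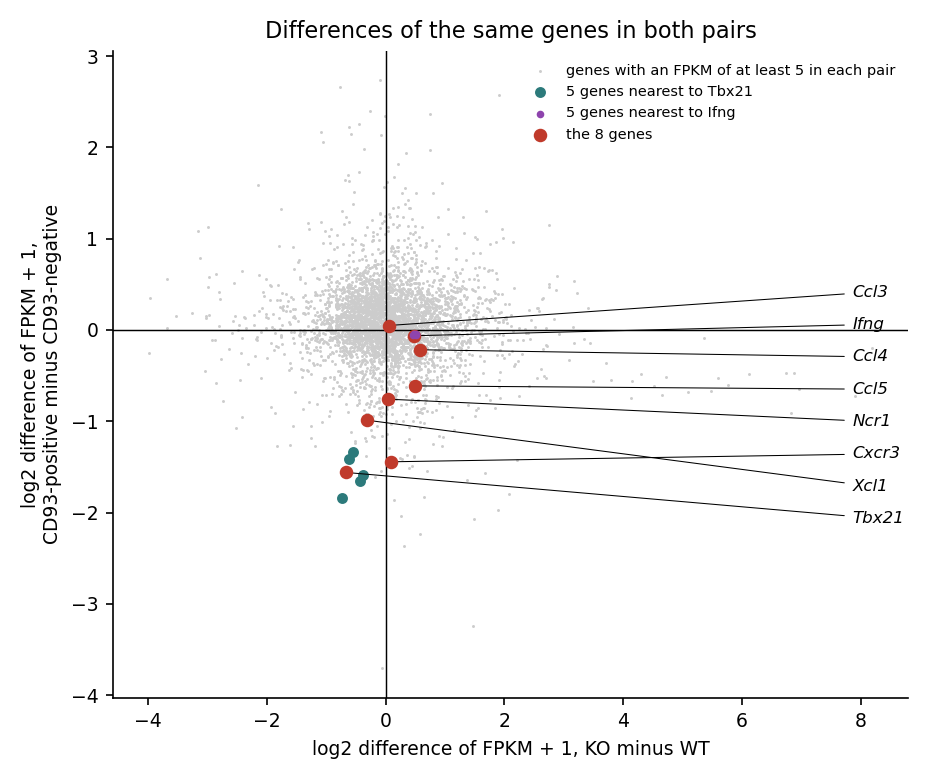
Log2 difference of FPKM + 1, KO minus WT on the horizontal axis and CD93-positive minus CD93-negative on the vertical axis, for 3949 genes in grey, the 8 genes in red and the genes nearest to Tbx21 and Ifng in green and purple. Tbx21 (-0.67 and -1.56) lies in a sparse region at the lower left, and Ifng (0.49 and -0.06) within the central cloud.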

How the data were processed

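The values are FPKM that the authors computed and deposited, 1 table per library and 1 joint table per pair; both held equal values in every row. Per the submitters' processing notes, Bowtie2, featureCounts of Subread, edgeR and DESeq2 were used with build mm10; the sources used here name neither their roles and versions nor the gene annotation. Libraries were read on a BGISEQ-500, per the series' design text. Reads were recovered as FPKM times union exon length (GENCODE M21) over 1 step per library, within 0.02 reads of a whole number for 92.1% of KO, 91.9% of WT, 98.1% of CD93-positive and 98.2% of CD93-negative values above 0 with a length. Reads are without molecular identifiers as far as stated, so intervals (Clopper-Pearson; on the log scale for ratios of 2 genes) cover counting error only. The recovery was tested on simulated data built with the same exon lengths. That test cannot show whether these lengths match those the authors used. A length was found for 11071 of 15242 names in the KO and WT pair and for 12399 of 12546 in the CD93 pair.

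The members and the 13 lists of pathway genes and cell type markers were chosen with earlier results of these data known. Some genes are in more than 1 list, so the counts of the lists are not separate. Named list genes are up to 8 per list and pair with an FPKM of at least 5, by size of difference, plus receptors and ligands of the members; Crtam, Cd14, Cd3d, Cd3g, Klra4 and other genes outside this rule were named after their values were seen. Alternatives were pseudocounts of 0.1 and 5, other filters, a 3-fold limit and 3 scalings; a minimum of 100 reads was chosen after seeing the data. Python 3.11.15, pandas 2.3.3 and scipy 1.17.1 were used. Some genes of the lists are not reported here.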

Additional observations from a re-analysis of the deposited data

How the results depend on the processing

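No paired analysis was possible because there was 1 library per group, and no library could be left out. Of 16 member differences, 15 kept their sign under both other pseudocounts and all 3 scalings, and Ccl3 in the CD93 pair turned. Sizes also moved in the KO and WT pair, where the FPKM sums were 510427 in KO and 575053 in WT. Scaled to the mean of these sums, all members there but Tbx21 moved by more than the margin of their counting interval. Ccl3 went from 0.05 to 0.22 and Xcl1 from -0.31 to -0.14. The 2 members past the limit in the CD93 pair, Tbx21 and Cxcr3, passed under both pseudocounts (Tbx21 -1.66 and -1.23, Cxcr3 -1.48 and -1.30) and every scaling, and 0 members passed a 3-fold limit; Tbx21, whose FPKM ratio was 3.19-fold lower, missed it on the scale with a pseudocount of 1 (-1.56). The counts over all genes moved more. In the KO and WT pair, 499 were higher and 322 lower with a pseudocount of 5, 908 and 611 with an FPKM of at least 5, 920 and 636 with the 3-fold limit, and 1160 and 846 with at least 100 reads. In the CD93 pair, 391 were higher and 392 lower with a pseudocount of 0.1, 109 and 60 with one of 5, and 73 and 37 with the 3-fold limit; 127 were lower with an FPKM of at least 5, 296 with both scaled to the mean of the 2 FPKM sums and 732 with a common sum. The cause was not tested, beyond fewer genes entering under the filters. With the common sum more genes entered (11831 in the CD93 pair), because it raised the values and left the pseudocount and minimum at 1. Depth limits Ccl3, Ccl4 and Xcl1 of the CD93 pair, with 49 to 108 reads over both libraries.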
